A study of Mus musculus with 9 samples.

Results

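The genes described here are the machinery with which the endoplasmic reticulum (ER) takes in, folds and discards proteins. They are 39 genes picked by name from a table of 23951 gene symbols, and all 39 were found. The table holds RNA sequencing of mast cells. Marrow of C57BL/6 mice, wild type in genotype, had been cultured 4 to 6 weeks with IL-3 and SCF, the factors mast cells need to grow, at 10 ng/ml each, and the labels give more than 95% of the cells as positive for CD117 and the high-affinity IgE receptor. All 9 libraries share this strain, genotype and culture. In 3 untreated libraries the cells received nothing further. In 3 IgE libraries they received 0.5 µg/ml IgE, labelled DNP-IgE after the hapten dinitrophenyl, for 18 h, and in 3 antigen libraries they received the same IgE and then 50 ng/ml DNP coupled to bovine serum albumin for 2 h. The antigen binds the IgE on the receptors and cross-links them. No antigen was given without IgE, so the antigen group is compared with IgE alone for the step that antigen adds.

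A protein made for secretion, for a granule or for the cell surface enters the ER through the Sec61 channel, loses its signal peptide and is folded by chaperones and by enzymes that join its cysteines. Molecules that fail to fold are drawn back through the membrane, tagged with ubiquitin and destroyed by the proteasome, which is called ER-associated degradation. Load on this system is read by the sensors IRE1, ATF6 and PERK, which together set off the unfolded protein response. Mast cells store proteases and other proteins in granules and make cytokines after activation, and all of these pass through the ER.

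Chaperone genes are known to be controlled through the ER stress response element (ERSE), which is bound by ATF6 together with the factor NF-Y. The sites below are shown because the genes that carry them include the chaperones described first under IgE. Promoter windows of 250 bases before to 50 bases after the start, from RefSeq on GRCm38.p6, were found for 33 of the 39 genes, in 35 windows, and not for Hyou1, Manf, Atf6, Sec61a1, Ssr2 and Derl1. The ERSE, made of CCAAT, any 9 bases and CCACG, searched on both strands, was present in 10 of these 35 windows, belonging to 10 genes, against 0.119% of all 32851 windows of the same length. In each line the capitals mark the match, which runs CCAAT first on the strand of the gene or CGTGG first where it lies on the other strand, with 12 bases on either side.
Hspa5, chr2:34772013-34772055, + strand: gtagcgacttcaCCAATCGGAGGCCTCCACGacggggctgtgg
Hsp90b1, chr10:86705626-86705668, - strand: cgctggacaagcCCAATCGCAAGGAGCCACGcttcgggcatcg
Hsp90b1, chr10:86705521-86705563, - strand: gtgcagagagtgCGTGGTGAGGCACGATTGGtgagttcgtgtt
Dnajc3, chr14:118937815-118937857, + strand: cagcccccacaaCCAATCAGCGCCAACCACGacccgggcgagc
Calr, chr8:84847063-84847105, - strand: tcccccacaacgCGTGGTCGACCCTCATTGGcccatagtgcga
Canx, chr11:50325788-50325830, - strand: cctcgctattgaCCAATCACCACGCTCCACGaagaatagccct
Pdia6, chr12:17266479-17266521, + strand: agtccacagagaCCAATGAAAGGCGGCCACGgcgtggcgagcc
Creld2, chr15:88819508-88819550, + strand: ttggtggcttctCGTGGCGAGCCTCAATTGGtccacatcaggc
Syvn1, chr19:6046520-6046562, + strand: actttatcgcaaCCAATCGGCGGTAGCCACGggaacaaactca
Hsp90b1 held a match at -212 to -194 and another at -107 to -89 bases from the start. Ero1lb and Derl3 also carried an ERSE in their windows. These matches are a description of the letters and not evidence of binding in these cells. Since the ERSE is known from chaperone genes, its share among the 35 windows is not a test of enrichment.

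A second form, ERSE-II, made of ATTGG, any 1 base and CCACG, was found in 12 of the 32851 windows, or 0.0365%, and 2 of these belonged to Herpud1 and Dnajb11. The letters TGACGTGG, known as the unfolded protein response element, were in 0.676% of all windows and in 0 of the 35. Only these exact letters were searched, and the Hspa5 stretch printed below holds tgacgtga, which differs in the last base. No ERSE or ERSE-II match overlapped another. The 200 bases before the start of Herpud1 and Ero1l are printed because these genes rose most with antigen, and those of Hspa5 because it rose at both steps. Capitals mark ERSE in Hspa5 and ERSE-II in Herpud1, and Ero1l has no match.
Herpud1, chr8:94386229-94386428, + strand: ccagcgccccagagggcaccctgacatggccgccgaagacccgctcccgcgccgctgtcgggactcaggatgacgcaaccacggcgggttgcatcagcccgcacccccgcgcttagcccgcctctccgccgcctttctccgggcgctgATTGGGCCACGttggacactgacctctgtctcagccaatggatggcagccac
Ero1l, chr14:45318573-45318772, - strand: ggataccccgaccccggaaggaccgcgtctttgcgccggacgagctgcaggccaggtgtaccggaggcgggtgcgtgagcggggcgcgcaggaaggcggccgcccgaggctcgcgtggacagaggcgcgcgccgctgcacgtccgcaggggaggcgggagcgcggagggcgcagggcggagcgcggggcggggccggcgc
Hspa5, chr2:34771890-34772089, + strand: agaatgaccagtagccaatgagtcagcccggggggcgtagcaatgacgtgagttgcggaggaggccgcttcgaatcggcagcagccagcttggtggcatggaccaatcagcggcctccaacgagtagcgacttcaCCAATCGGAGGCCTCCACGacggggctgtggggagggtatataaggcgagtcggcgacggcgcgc

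Levels are given in FPKM, which divide the fragments of a gene by its transcript length and by the size of the library, so that genes of different length can be compared. Low values fall on steps worth 1 read, and from these steps the depth was estimated at 20800000 to 39800000 reads per library, with the antigen libraries lowest at 20800000 to 28600000. Of the values used, 45.9% to 60.9% lay within 0.1 of a whole read, so the depth is approximate. At the lowest depth a gene with a 2 kb transcript carries a counting error of 4.9% at 10 FPKM and 1.55% at 100 FPKM, which covers counting error only. Of the mast cell markers, Kit, Fcer1a, Ms4a2, Tpsb2, Mitf, Gata2 and Hdc were detected, and Cpa3 and Cma1 were listed at 0 in all 9 libraries. Basophil markers were detected as well, with 3 of 3 above 1 FPKM and a summed level of 507 to 545 FPKM in untreated, 423 to 477 in IgE and 554 to 574 in antigen libraries. The summed level of 7 B and plasma cell markers, cells rich in ER, was 2.37 to 2.67 FPKM in untreated and 0.788 to 1.15 in antigen libraries, with Pax5 at 0 throughout. Summed macrophage markers were at 12.6 to 13.8 FPKM in untreated and 8.3 to 8.46 in antigen libraries, and erythroid markers at 15.2 to 18.1 and 25.3 to 27.1. The part of these cells in the results was not tested. Antigen replicate 3 listed at 0 all 437 genes of chromosome X that were above 0 in the other 8 libraries. None of the 39 genes lies on chromosome X or Y, and 0 of them were listed at 0 in any library. IgE replicate 3 was the lowest of the IgE libraries in 30 of the 38 tested genes of the machinery and in 46.7% of all tested genes.

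Summed over the 39 genes, the level was 3684 ± 105 FPKM in untreated, 4595 ± 217 in IgE and 5706 ± 56.3 in antigen libraries (mean ± SD, n = 3 here and below). The total FPKM over all genes was 469206 to 508831 in untreated, 483794 to 524935 in IgE and 554415 to 575197 in antigen libraries. Between IgE and antigen libraries Ero1l went from 230 to 728 FPKM and Herpud1 from 99.8 to 316.5. The sum is thus not a measure of a rise shared by the 39 genes. In untreated cells Calr, the soluble lectin chaperone calreticulin, stood highest at 642 ± 2.67 FPKM, a level above that of 99.1% of the 10890 genes tested. Hsp90b1, the ER form of HSP90 known as GRP94, followed at 381 ± 9.78 FPKM. The next places were taken by P4hb at 224 ± 10.1, Hspa5 at 222 ± 12.4 and Ero1l at 219.5 ± 7.43 FPKM, whose values overlapped between libraries so that their order is not fixed. The sensors stood below these genes, with Atf6 at 14.7 ± 0.327, Ern1 at 10.8 ± 0.71 and Eif2ak3 at 10.4 ± 0.195 FPKM. Their levels were above those of 56.3%, 46.7% and 45.1% of the genes tested. Within families the members differed widely: Ero1l stood at 219.5 FPKM and its relative Ero1lb at 5.62 ± 0.127, while Derl1, Derl2 and Derl3 stood at 45 ± 1.09, 11.7 ± 0.516 and 0.196 ± 0.129 FPKM. Derl3 was between 0.0825 and 0.451 FPKM in all 9 libraries and was the one gene of the 39 left out of the tests, which needed 1 FPKM in at least 3 libraries.

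**Figure D1:**
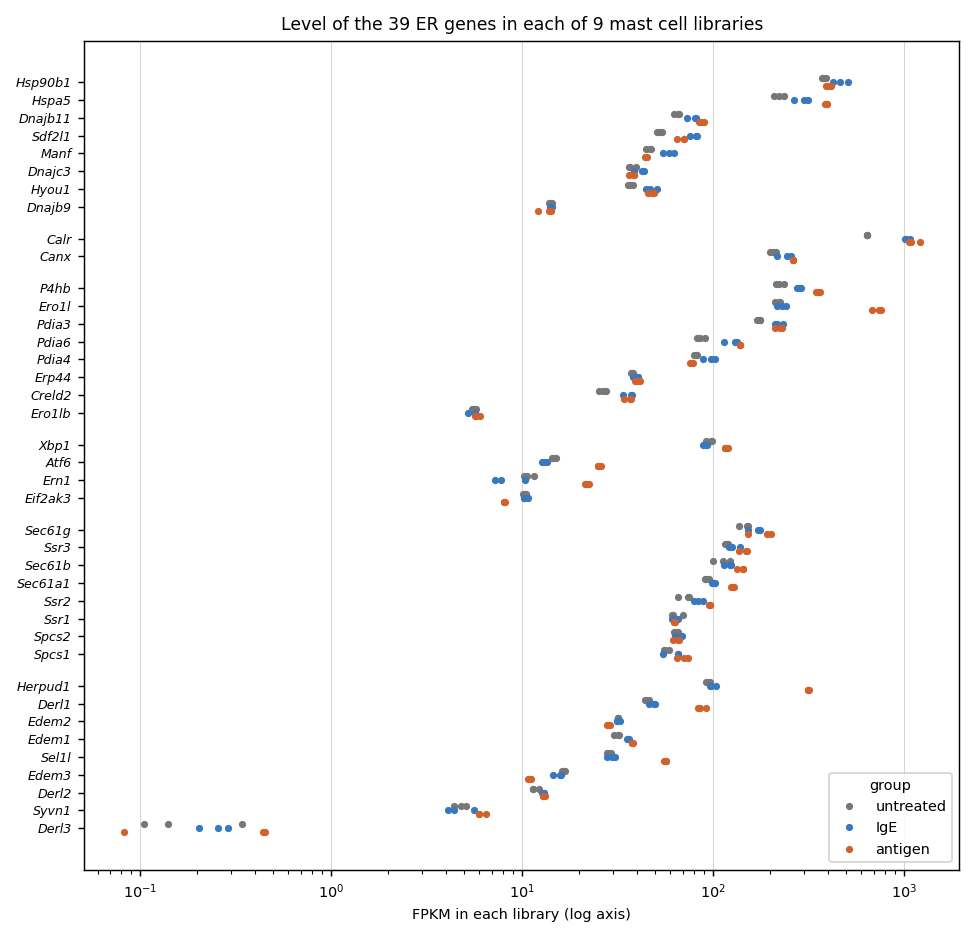
FPKM of the 39 ER genes on a log axis, grouped by role from chaperones at the top to ER-associated degradation at the bottom, with one point per library and 3 libraries in each group. Herpud1 and Ero1l in antigen libraries stand clear to the right of both other groups, and Derl3 lies below 1 FPKM in every library.

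IgE alone, compared with untreated cells, was accompanied by rises of folding genes. Of the 38 genes tested, 17 rose and 1 fell (limma, adjusted p under 0.05 over all tested genes), while 14.5% of all tested genes were called higher and 13.1% lower. Changes are differences of mean log2(FPKM + 1), and the median of the 38 was 0.13 on the log2 scale, against -0.0084 over all tested genes. Rises reached 6 of 8 chaperones of the BiP and GRP94 systems, both lectin chaperones and 5 of 8 genes of disulfide formation, but 2 of 8 translocation genes and 2 of 8 tested degradation genes. None of the 3 sensor genes rose, nor did Xbp1. In cultures sequenced in bulk, a change in the share of a cell type and a change of RNA per cell cannot be told apart.

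Calr showed the largest rise, with 639, 644 and 643 FPKM in untreated, 1076, 1028 and 1017 in IgE and 1210, 1097 and 1069 in antigen libraries. The untreated libraries lay within 6 FPKM of each other and far below all others. Calr rose 1.62-fold, log2 0.69, SE 0.0533, adjusted p = 0.000246. Canx, the membrane-bound lectin chaperone calnexin, went from 207 ± 8.05 to 239 ± 20.8 FPKM (log2 0.20, adjusted p = 0.0416), a call lost under 12 of 22 alternative settings, among them without any 1 of the untreated libraries, IgE replicate 1 or 2 or antigen replicate 1 or 2. In these 12 the adjusted p ran from 0.054 to 0.39. These lectins hold glycoproteins that carry a trimmed sugar until they fold.

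Among the BiP and GRP94 chaperones, Sdf2l1, which works beside BiP, had 51.2, 54.4 and 52.2 FPKM in untreated, 82.1, 82.8 and 75.6 in IgE and 70.7, 71 and 65.2 in antigen libraries. All 3 IgE libraries were above all untreated libraries, and the antigen libraries lay between the other groups. Sdf2l1 rose 1.52-fold, log2 0.60, SE 0.0493, adjusted p = 0.000262 with IgE and then fell by 0.21 on the log2 scale between IgE and antigen (adjusted p = 0.00433). Hspa5, which encodes BiP itself, the central ER HSP70, had 210.3, 235 and 221 FPKM in untreated, 316, 301 and 265 in IgE and 396, 388 and 398 in antigen libraries. The 3 groups did not overlap and stood in the order untreated, IgE, antigen. With IgE it rose 1.32-fold, log2 0.40, SE 0.0681, adjusted p = 0.00428.

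Hyou1, the nucleotide exchange factor of BiP, had 35.9, 38.4 and 36.7 FPKM in untreated, 46.6, 44.4 and 50.7 in IgE and 46, 47.8 and 49.3 in antigen libraries. Its IgE and antigen libraries overlapped, and both lay above the untreated ones. Hyou1 rose 1.28-fold, log2 0.34, SE 0.0524, adjusted p = 0.00271. Hsp90b1 had 374, 392 and 377 FPKM in untreated, 510.5, 464 and 423 in IgE and 414, 400.4 and 390.2 in antigen libraries, with the IgE libraries highest and spread widely. It rose 1.22-fold, log2 0.29, SE 0.0652, adjusted p = 0.0144 with IgE, a call lost without untreated replicate 1 (log2 0.27, adjusted p = 0.0526; range of adjusted p over all settings 0.00131 to 0.0526).

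Manf, a small protein that binds BiP and can be secreted, had 44.4, 47 and 47.6 FPKM in untreated, 58.9, 62.9 and 55.1 in IgE and 44.7, 44.4 and 45 in antigen libraries. It was high in IgE libraries only, and the antigen and untreated libraries overlapped. With IgE it rose 1.27-fold, log2 0.34, SE 0.049, adjusted p = 0.00217. The J-domain partners of BiP differed from one another: Dnajb11 went from 64.9 ± 2.22 to 78.5 ± 4.82 FPKM (log2 0.27, adjusted p = 0.00629), Dnajc3 from 37.6 ± 1.71 to 41.6 ± 2.52 (log2 0.14, adjusted p = 0.0807) and Dnajb9 from 14.2 ± 0.265 to 14.2 ± 0.117 (log2 0.0044, adjusted p = 0.969). Of these partners, Dnajb11 alone passed the test. The change of Dnajc3 passed it without IgE replicate 3 (log2 0.19, adjusted p = 0.0175; adjusted p over all settings 0.0134 to 0.219).

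Disulfide bonds are made by the protein disulfide isomerases, which are recharged by the ERO1 oxidases. Pdia6, one of these isomerases, had 82.4, 91.4 and 85.5 FPKM in untreated, 134, 131 and 115 in IgE and 138, 139 and 139 in antigen libraries. Untreated libraries lay below all the others. It rose 1.46-fold, log2 0.54, SE 0.0604, adjusted p = 0.000719 with IgE. Creld2, an ER stress-inducible protein with an isomerase-like motif, had 25.4, 26.5 and 27.7 FPKM in untreated, 37.9, 37.2 and 33.9 in IgE and 37.1, 34.2 and 36.6 in antigen libraries. It rose 1.37-fold, log2 0.44, SE 0.0538, adjusted p = 0.00106, and its antigen libraries lay within the range of the IgE libraries. P4hb, the founding isomerase PDI, had 215, 235 and 222 FPKM in untreated, 287, 289 and 274 in IgE and 363, 346 and 354 in antigen libraries, with no overlap between any of the groups. The rise of P4hb with IgE was 1.27-fold, log2 0.34, SE 0.0424, adjusted p = 0.00114. Pdia3, the isomerase that partners calreticulin and calnexin, had 170.3, 177 and 178 FPKM in untreated, 233, 216 and 213 in IgE and 212, 226 and 230.5 in antigen libraries. IgE libraries were above the untreated ones and overlapped those with antigen. Pdia3 rose 1.26-fold, log2 0.33, SE 0.0475, adjusted p = 0.00212, and Pdia4 rose from 81.4 ± 1.26 to 96.5 ± 6.61 FPKM (log2 0.24, adjusted p = 0.00833). The oxidases themselves and Erp44, which retains them in the ER, were not called, with log2 changes of 0.064 for Ero1l, -0.018 for Ero1lb and 0.070 for Erp44.

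Of the genes of entry and of disposal, 4 of 16 rose with IgE, beside 14.5% of all tested genes. Sec61a1, the pore-forming subunit of the channel, had 90.6, 91.8 and 95.2 FPKM in untreated, 102, 99.1 and 102 in IgE and 128, 125 and 129.7 in antigen libraries. IgE libraries exceeded the untreated ones by a small margin (log2 0.13, adjusted p = 0.0195), and that call was lost under 6 alternatives, among them without untreated replicate 1 or 2 or IgE replicate 1 (adjusted p 0.0124 to 0.201 over all of them). Ssr2, a subunit of the translocon-associated TRAP complex, rose from 71.7 ± 5.02 to 83.9 ± 4.74 FPKM (log2 0.22, adjusted p = 0.0226), a call lost without untreated replicate 1, IgE replicate 1 or IgE replicate 2 (adjusted p 0.00569 to 0.0731 over the alternatives). Edem1, which trims sugars of misfolded glycoproteins and marks them for disposal, had 32.2, 31.9 and 30.6 FPKM in untreated, 35.6, 36.3 and 35.9 in IgE and 37.7, 38 and 37.6 in antigen libraries. It rose 1.14-fold, log2 0.18, SE 0.0287, adjusted p = 0.00305, a call lost with a fixed total (log2 0.16, adjusted p = 0.0685; adjusted p 0.0026 to 0.0685 over the alternatives). Derl2, a derlin of the membrane channel for disposal, rose from 11.7 ± 0.516 to 12.9 ± 0.153 FPKM (log2 0.14, adjusted p = 0.029), a call lost under 7 alternatives, among them without untreated replicate 1 or 3, IgE replicate 1 or 2 or antigen replicate 3 (adjusted p 0.0145 to 0.129 over all of them).

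Atf6, the sensor that is cut in the Golgi to free a transcription factor, was the gene that fell, from 14.7 ± 0.327 to 13.1 ± 0.338 FPKM (log2 -0.15, adjusted p = 0.0147). This call was lost without untreated replicate 1 or IgE replicate 2 (log2 -0.13, adjusted p = 0.057 and log2 -0.13, adjusted p = 0.0531; adjusted p over all settings 0.00896 to 0.0938). Ern1, the kinase and nuclease IRE1, was at 11.6, 10.6 and 10.3 FPKM in untreated and 7.75, 7.22 and 10.4 in IgE libraries. IgE replicate 3 lay among the untreated values and the other 2 IgE libraries below them. The difference missed the threshold (log2 -0.33, adjusted p = 0.0589) and passed it without IgE replicate 3 (log2 -0.48, adjusted p = 0.00152) or antigen replicate 3 (log2 -0.33, adjusted p = 0.0478; adjusted p over all settings 0.000619 to 0.174). Without IgE replicate 3 the counts for this comparison were 21 higher and 2 lower.

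**Figure D2:**
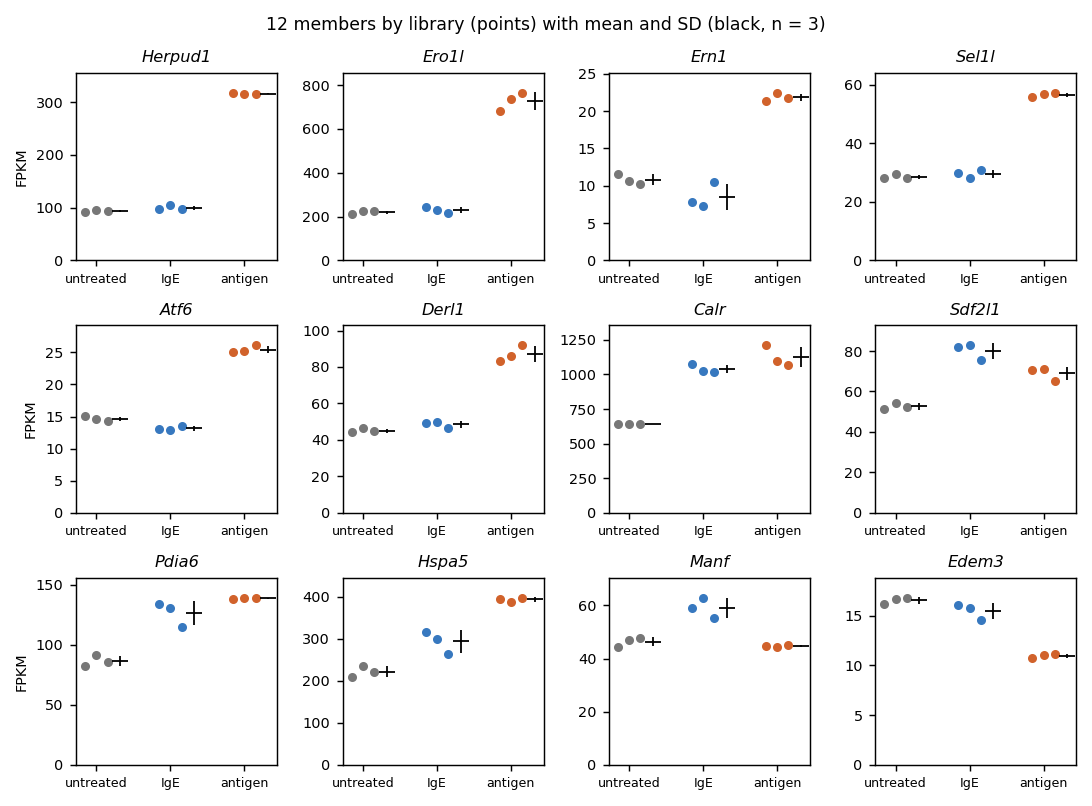
FPKM of 12 ER genes in each library, on axes that start at 0, with 3 untreated, 3 IgE and 3 antigen points per panel and the mean and SD in black. Herpud1, Ero1l, Ern1, Sel1l, Atf6 and Derl1 are high in antigen libraries, while Calr, Sdf2l1 and Pdia6 are already above untreated in IgE libraries and Manf and Edem3 are lower in antigen than in IgE libraries.

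Antigen for 2 h on top of IgE was accompanied by rises of the degradation genes Herpud1, Sel1l and Derl1, the oxidase gene Ero1l and the sensor genes Ern1 and Atf6, and by falls of 7 genes that included Manf and Edem3. Of the 38 genes, 15 rose and 7 fell compared with IgE alone, while 36.2% of all tested genes were called higher and 34.9% lower. Since 71.1% of all tested genes changed in this comparison, the share of the 38 that rose, 39.5%, was close to the background, and the share that fell, 18.4%, was below it. The median change was 0.12 on the log2 scale, against -0.010 over all tested genes. Scaling moved these counts: 7 rose and 16 fell after quantile normalization, and 10 rose and 15 fell with each library rescaled to a fixed total, an alternative chosen after seeing the data that also moved the median of all tested genes from -0.01 to -0.16 and the share of rises among all calls from 50.9% to 34%. The median of the 38 genes was then -0.057. After quantile normalization it was -0.12, against -0.063 for all tested genes, so that the 38 lay above the rest under one scaling and below it under the other. Ero1l, Herpud1, Ern1, Sel1l, Atf6 and Derl1 rose, and Hsp90b1, Sdf2l1, Manf, Pdia4, Eif2ak3, Edem2 and Edem3 fell, under all 22 alternatives.

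Herpud1, a ubiquitin-like membrane protein of the degradation complex around the ligase Hrd1, had 91.8, 96.3 and 94.5 FPKM in untreated, 98.3, 104 and 96.8 in IgE and 317, 316 and 316 in antigen libraries. The antigen libraries were close to each other and far above the rest. Herpud1 rose 3.17-fold, log2 1.66, SE 0.0356, adjusted p = 3.98e-09. Sel1l, the adaptor that holds this complex together, had 28, 29.4 and 28.2 FPKM in untreated, 29.8, 28 and 30.7 in IgE and 55.8, 56.7 and 57.1 in antigen libraries, with the antigen libraries far above overlapping untreated and IgE libraries. It rose 1.91-fold, log2 0.91, SE 0.0388, adjusted p = 1.62e-07. Derl1, a derlin, had 44.1, 46.2 and 44.8 FPKM in untreated, 49.2, 49.7 and 46.4 in IgE and 83.3, 86 and 91.8 in antigen libraries. Again the antigen libraries stood alone at the top, and the rise was 1.8-fold, log2 0.83, SE 0.0447, adjusted p = 6.44e-07. Syvn1, which encodes Hrd1, went from 4.71 ± 0.83 to 6.14 ± 0.334 FPKM (log2 0.33, adjusted p = 0.0154), and this call was lost without IgE replicate 1, IgE replicate 2 or antigen replicate 2 (adjusted p 0.000474 to 0.197 over the alternatives).

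Of the 8 tested degradation genes 4 rose and 2 fell, beside 36.2% higher and 34.9% lower over all tested genes. After quantile normalization 4 were higher and 2 lower, and with a fixed total 3 were higher and 3 lower. Of all 10890 tested genes, 3309 were higher and 3994 lower after quantile normalization, and 2572 and 4999 with a fixed total. The 2 degradation genes that fell in the main test encode the glycoprotein-trimming proteins EDEM2 and EDEM3. Edem3 had 16.2, 16.7 and 16.8 FPKM in untreated, 16.1, 15.8 and 14.6 in IgE and 10.8, 11 and 11.1 in antigen libraries. All antigen libraries lay below all others. It fell by 0.46 on the log2 scale (SE 0.0414, adjusted p = 1.54e-05). Edem2 fell from 31.8 ± 0.639 to 28.5 ± 0.422 FPKM (adjusted p = 0.00117). Edem1 stood at 35.9 ± 0.335 FPKM and 37.7 ± 0.2 FPKM (log2 0.069, adjusted p = 0.0588), and Derl2 at 12.9 ± 0.153 and 13 ± 0.195 (log2 0.0072, adjusted p = 0.87). The summed FPKM of the 9 degradation genes went from 279 ± 5.04 in IgE to 557 ± 4.1 in antigen libraries, of which Herpud1 made up 35.8% and 56.9%. Without Herpud1 the sums were 179 ± 1.25 and 240.2 ± 4.6 FPKM.

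In the disulfide group 2 of 8 genes rose and 1 fell, beside 36.2% and 34.9% of all tested genes. The counts were 1 higher and 5 lower after quantile normalization and 2 higher and 4 lower with a fixed total. The oxidase gene Ero1l rose most. Ero1l, which passes electrons from the isomerases to oxygen, had 211, 224 and 223 FPKM in untreated, 242, 230.3 and 216 in IgE and 682, 739 and 763 in antigen libraries. Untreated and IgE libraries overlapped, and every antigen library was far higher. Ero1l rose 3.17-fold, log2 1.66, SE 0.0574, adjusted p = 5.03e-08, and its share of the summed FPKM of the 8 genes of disulfide formation went from 22.1% to 45.4%. Its relative Ero1lb stood at 5.54 ± 0.285 FPKM and 5.82 ± 0.184 FPKM (log2 0.060, adjusted p = 0.256). P4hb rose 1.25-fold, log2 0.32, SE 0.0424, adjusted p = 0.000175, but this became log2 -0.019, adjusted p = 0.694 after quantile normalization (adjusted p 9.87e-05 to 0.694 over the alternatives). Pdia4, known as ERp72, fell from 96.5 ± 6.61 to 77.6 ± 1.14 FPKM (log2 -0.31, adjusted p = 0.000462). Pdia3, Pdia6, Creld2 and Erp44 were not called, with log2 changes of 0.016, 0.13, -0.012 and 0.021. Pdia6 passed the test upward without IgE replicate 1 (log2 0.18, adjusted p = 0.0397) and downward after quantile normalization (log2 -0.18, adjusted p = 0.00715), and Pdia3, Creld2 and Erp44 were called lower after quantile normalization and with a fixed total.

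The 3 sensor genes and Xbp1 all changed, and not in the same direction, beside 71.1% of all tested genes called either way. Ern1 had 21.4, 22.4 and 21.8 FPKM in antigen libraries, above the IgE and untreated values given before, and rose 2.58-fold, log2 1.28, SE 0.112, adjusted p = 1.33e-05. Atf6 had 15, 14.6 and 14.4 FPKM in untreated, 13.1, 12.8 and 13.5 in IgE and 25, 25.2 and 26.1 in antigen libraries. The antigen libraries stood well above the rest, and the rise was 1.94-fold, log2 0.90, SE 0.034, adjusted p = 8.09e-08. Xbp1, whose RNA is spliced by IRE1 into the form that encodes an active transcription factor, had 92.2, 99 and 97.4 FPKM in untreated, 93.3, 92 and 89.3 in IgE and 115, 116 and 120.3 in antigen libraries. It rose 1.28-fold, log2 0.35, SE 0.0365, adjusted p = 3.81e-05, with log2 0.090, adjusted p = 0.0612 after quantile normalization (adjusted p 1.62e-05 to 0.0612 over the alternatives). One value per gene cannot separate the spliced from the unspliced form. Eif2ak3, the kinase PERK that slows translation, had 10.2, 10.4 and 10.6 FPKM in untreated, 10.2, 10.2 and 10.8 in IgE and 8.08, 8.12 and 8.04 in antigen libraries. It was lowest in the antigen libraries and fell by 0.33 on the log2 scale (SE 0.034, adjusted p = 3.69e-05).

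**Figure D3:**
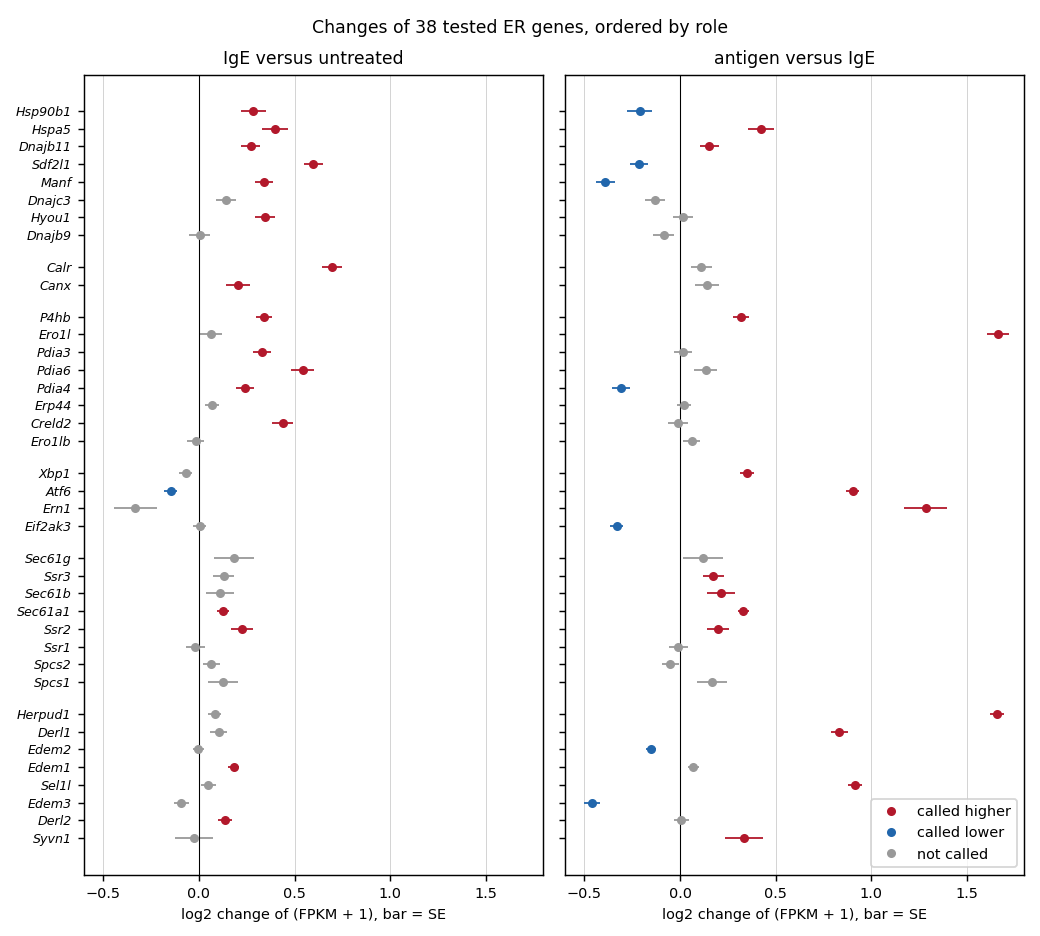
Log2 change of FPKM + 1 with its SE for the 38 tested ER genes, IgE versus untreated on the left and antigen versus IgE on the right, in the same order of roles; red and blue mark genes called higher and lower (limma, adjusted p under 0.05) and grey those not called. On the left most red points are chaperones and isomerases, and on the right Ero1l and Herpud1 lie farthest from 0.

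Of the 8 BiP and GRP94 chaperones 2 rose and 3 fell with antigen, beside 36.2% and 34.9% of all tested genes. The counts were 0 higher and 5 lower after quantile normalization and 1 higher and 5 lower with a fixed total. Hspa5 rose 1.34-fold, log2 0.43, SE 0.0681, adjusted p = 0.000557, although not after quantile normalization (log2 0.064, adjusted p = 0.338; adjusted p over all settings 0.000184 to 0.338). Dnajb11 went from 78.5 ± 4.82 to 87.3 ± 2.72 FPKM (log2 0.15, adjusted p = 0.0241), a call lost without antigen replicate 1 or 2, and its direction turned after quantile normalization and with a fixed total (adjusted p 0.0186 to 0.677 over the alternatives). Manf fell by 0.39 on the log2 scale (SE 0.049, adjusted p = 0.000127), and Hsp90b1 by 0.21 (SE 0.0652, adjusted p = 0.0184). IgE replicate 3, the lowest of its group in most of these genes, is on the reference side of every value in this comparison. Hyou1, Dnajb9 and Dnajc3 were not called (log2 0.014, adjusted p = 0.817 for Hyou1, log2 -0.086, adjusted p = 0.182 for Dnajb9 and log2 -0.13, adjusted p = 0.0555 for Dnajc3). Hyou1 was called lower after quantile normalization (log2 -0.15, adjusted p = 0.0437) and Dnajb9 with a fixed total (log2 -0.25, adjusted p = 0.0125). Dnajc3 was called lower under 7 alternatives, among them without IgE replicate 3 (log2 -0.18, adjusted p = 0.00913), without untreated replicate 2 (log2 -0.13, adjusted p = 0.0495) and after quantile normalization (log2 -0.27, adjusted p = 0.00112; adjusted p 0.000989 to 0.169 over all of them). The lectin chaperones stayed under the threshold as well, with Calr at log2 0.11, adjusted p = 0.0915 and Canx at log2 0.14, adjusted p = 0.0683. Canx passed it without IgE replicate 1 (log2 0.20, adjusted p = 0.019; adjusted p 0.019 to 0.615 over the alternatives), and both genes were below 0 after quantile normalization and with a fixed total. Summed over the 8 BiP and GRP94 chaperones, the level was 856 ± 29.1 FPKM in untreated, 1081 ± 79.9 in IgE and 1096 ± 15 in antigen libraries.

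Of the 8 genes of the entry route 4 rose and 0 fell, beside 36.2% and 34.9% of all tested genes. This balance did not hold with another scaling, with 0 higher and 3 lower after quantile normalization and 1 higher and 2 lower with a fixed total. Sec61a1 rose 1.26-fold, log2 0.33, SE 0.0311, adjusted p = 2.04e-05, with log2 0.027, adjusted p = 0.582 after quantile normalization (adjusted p 1.19e-05 to 0.582 over the alternatives). Sec61b, a small subunit of the channel, and the TRAP subunits Ssr2 and Ssr3 were called higher with log2 changes of 0.21, 0.20 and 0.17 (adjusted p = 0.0273, 0.0134 and 0.0179), and each of these turned negative after quantile normalization. The call of Sec61b was lost without IgE replicate 1 or 3 or antigen replicate 1 or 2 (adjusted p 0.00747 to 0.432 over the alternatives), and that of Ssr3 without IgE replicate 2 or 3 or antigen replicate 2 (adjusted p 0.00448 to 0.969 over the alternatives). Sec61g, Ssr1 and the signal peptidase subunits Spcs1 and Spcs2 were not called, with Spcs1 at 62.3 ± 6.29 and 69.8 ± 4.87 FPKM and Spcs2 at 67 ± 3.25 and 64.7 ± 2.65. Ssr1 and Spcs2 were called lower after quantile normalization (log2 -0.21, adjusted p = 0.00519 and log2 -0.25, adjusted p = 0.000919) and with a fixed total (adjusted p = 0.0163 and 0.00513). Spcs2 was called lower too with IgE and antigen replicates 3 both left out (log2 -0.11, adjusted p = 0.0483). Spcs1 passed the test without antigen replicate 3 (log2 0.22, adjusted p = 0.0296; adjusted p 0.0244 to 0.946 over the alternatives). Sec61g had 202, 192 and 153 FPKM in antigen libraries, with replicate 3 near the IgE values of 172, 176 and 153, and its change passed the test without antigen replicate 3 (log2 0.24, adjusted p = 0.0147; adjusted p over all settings 0.0147 to 0.747).

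**Figure D4:**
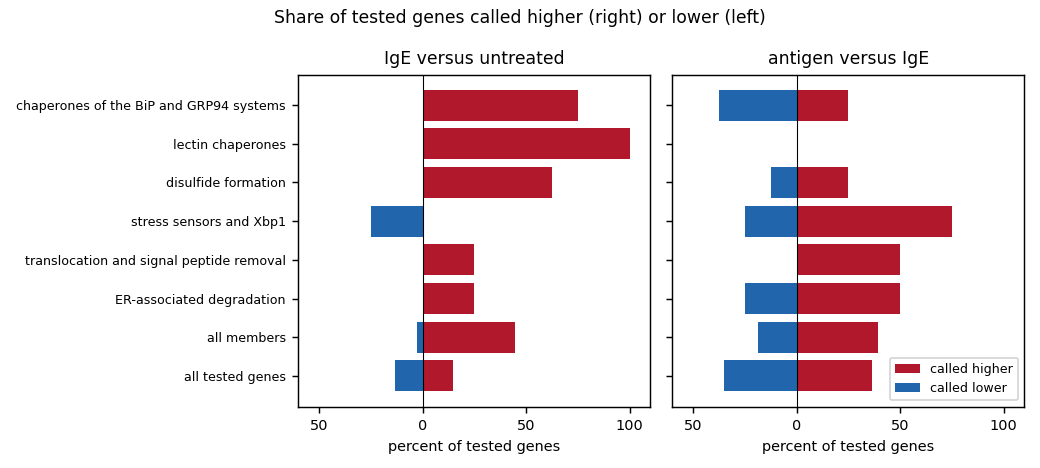
Share of tested ER genes called higher (right, red) or lower (left, blue) in each role, over all 38 and over all 10890 tested genes, for IgE versus untreated and antigen versus IgE. The lectin chaperones are 2 genes, so that their bar of 100 percent under IgE stands for Calr and Canx, and in the antigen comparison the bars of all members and all tested genes have similar length on the right.

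Antigen compared with untreated cells shares its libraries with both other comparisons and gives the sum of the steps. Here 27 of the 38 genes rose and 3 fell, against 37.2% and 34.4% of all tested genes, with a median log2 change of 0.32 against 0.0022 on the log2 scale. After quantile normalization 18 rose and 9 fell, and with a fixed total 18 rose and 10 fell, while the median of all tested genes became -0.18 and the share of rises among all calls went from 52% to 34%. Herpud1 rose 3.36-fold, log2 1.74, SE 0.0356, adjusted p = 2.92e-09 and Ero1l 3.32-fold, log2 1.72, SE 0.0574, adjusted p = 3.80e-08. Hspa5 rose 1.77-fold, log2 0.82, SE 0.0681, adjusted p = 8.88e-06, Calr 1.75-fold, log2 0.81, SE 0.0533, adjusted p = 2.24e-06 and P4hb 1.58-fold, log2 0.66, SE 0.0424, adjusted p = 1.87e-06. Sel1l, Ern1, Derl1, Atf6 and Pdia6 were 1.98-fold, 2.02-fold, 1.93-fold, 1.74-fold and 1.6-fold higher. The genes that fell were Edem3, Eif2ak3 and Edem2, with log2 changes of -0.55, -0.33 and -0.15. Manf, which had risen with IgE and fallen with antigen, was at 46.3 ± 1.68 FPKM without treatment and 44.7 ± 0.329 with antigen (log2 -0.050, adjusted p = 0.382). Hsp90b1 (log2 0.075, adjusted p = 0.329) and Pdia4 (log2 -0.068, adjusted p = 0.231) were not called either. With another scaling all 3 were below untreated: Manf was called lower after quantile normalization (log2 -0.24, adjusted p = 0.0011) and with a fixed total (log2 -0.25, adjusted p = 0.000265), as was Pdia4 (log2 -0.36, adjusted p = 4.25e-05 and log2 -0.27, adjusted p = 0.000561), and Hsp90b1 after quantile normalization (log2 -0.34, adjusted p = 0.000237). Pdia4 was called lower too once IgE replicate 3 was left out (log2 -0.068, adjusted p = 0.0488).

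Counted over both steps, 5 genes rose with IgE and again with antigen, namely Hspa5, Dnajb11, P4hb, Sec61a1 and Ssr2. The antigen call of each of these 5 was lost after quantile normalization. Another 4 rose with IgE and then fell with antigen, namely Hsp90b1, Sdf2l1, Manf and Pdia4. The antigen falls of these 4 held under all 22 alternatives. For 9 genes the antigen step alone passed the test upward, among them Herpud1, Ero1l, Ern1, Sel1l and Derl1, and for 8 it was the IgE step alone. Atf6 was called lower with IgE and higher with antigen. The IgE libraries enter both steps with opposite sign, so that these pairs of calls are not independent of each other. The share of all tested genes with each pair of calls was not counted, so these counts have no background of their own. At the single steps, 14.5% of all tested genes were called higher and 13.1% lower with IgE, and 36.2% and 34.9% with antigen.

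Genes with an ERSE or ERSE-II in the promoter window were counted apart, beside shares over all tested genes of 14.5% higher and 13.1% lower with IgE and 36.2% and 34.9% with antigen. Of the 11 that were tested, 7 rose with IgE, 0 fell and 4 were not called, and their median log2 change was 0.27. Among the 21 genes whose window held neither, 6 rose and 15 were not called, with a median of 0.070. Sdf2l1, with a rise next to that of Calr, was in the second set. So were Pdia3 and Pdia4, which rose with IgE and carried the ERSE without its last G. That shorter form was found in 14 of the 33 genes with a window and in 0.365% of all windows. The split thus depends on the last base, and calls were not counted for the shorter form. With antigen 4 of the 11 rose and 1 fell, with a median of 0.13, and 7 of the 21 rose and 5 fell, with a median of 0.021. The shares that rose with antigen were thus near the background in both sets. Herpud1 and Ero1l, with nearly equal rises, belonged to the first and the second set. The 6 genes without a window stood outside both sets. Of these 6, 4 rose and 1 fell with IgE, with a median of 0.17. With antigen 4 of them rose and 1 fell, with a median of 0.27.

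Other genes of the same pathways were counted in lists, against the same background of 14.5% higher and 13.1% lower with IgE and 36.2% and 34.9% with antigen. Of 25 tested ER folding enzymes outside the 39, 7 rose and 0 fell with IgE, and 4 rose and 9 fell with antigen. The IgE counts were 4 higher and 2 lower after quantile normalization and 3 higher and 0 lower with a fixed total, and the antigen counts 3 higher and 16 lower after quantile normalization and 2 higher and 14 lower with a fixed total. Fkbp2, an ER prolyl isomerase, rose with IgE (log2 0.38, adjusted p = 0.00223), as did the disulfide isomerases Txndc5 and Pdia5 (log2 0.19 and 0.35). Mlec, the sugar-binding protein malectin, fell with antigen from 240.3 ± 6.14 to 157 ± 2.42 FPKM (log2 -0.61, adjusted p = 4.90e-07), and Cnpy3, a cofactor of GRP94, fell as well (log2 -0.43, adjusted p = 2.00e-05), as did the thioredoxin-related Tmx2 (log2 -0.41, adjusted p = 1.67e-05). In the list of targeting, translocation and N-glycosylation, 8 of 28 rose and 0 fell with IgE, and those with the smallest adjusted p were the glycosylation subunits Ddost, Rpn2 and Ostc (log2 0.29, 0.20 and 0.33). With antigen 15 rose and 2 fell, or 17 and 3 with the chromosome X and Y zeros of antigen replicate 3 treated as missing. This balance turned with another scaling, to 5 higher and 10 lower after quantile normalization and 2 higher and 7 lower with a fixed total. Srp68, of the signal recognition particle, and Srpr, its receptor, rose (log2 0.53 and 0.47), and Wrb, a receptor subunit for tail-anchored proteins, fell (log2 -0.75, adjusted p = 8.30e-06).

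Of 26 further genes of ER-associated degradation, 13 rose and 5 fell with antigen, with 11 higher and 7 lower after quantile normalization and 9 higher and 8 lower with a fixed total. With IgE 1 rose and 0 fell, with 1 higher and 3 lower after quantile normalization and 1 higher and 0 lower with a fixed total. March6, an ER membrane ubiquitin ligase, rose 1.74-fold, log2 0.76, SE 0.0449, adjusted p = 1.22e-06, and Ubxn4, which recruits the segregase p97, rose by a log2 change of 0.50. Vcp, which encodes p97, was the gene that rose with IgE in the main test (log2 0.18, adjusted p = 0.0189, with 0.00956 to 0.0924 over all settings). Its call was lost without untreated replicate 1 or IgE replicate 1. It was lost after quantile normalization as well (log2 0.11, adjusted p = 0.0924), so the gene called higher there was another. Of 11 further stress regulators 7 rose and 2 fell with antigen, with 6 higher and 4 lower after quantile normalization and 5 higher and 3 lower with a fixed total, and 0 rose and 1 fell with IgE. The latter was Mbtps1, a protease that cuts ATF6 (log2 -0.11, adjusted p = 0.0493), and its call was lost under 15 alternatives (adjusted p 0.0171 to 0.142 over all of them). Map3k5, a kinase known as ASK1 that acts below IRE1, rose from 11.8 ± 0.147 to 49.7 ± 1.23 FPKM (log2 1.99, adjusted p = 6.92e-10), and Traf2, its adaptor, from 11.6 ± 0.282 to 28.1 ± 0.721 (log2 1.21, adjusted p = 1.23e-08). Nfe2l1, an ER-anchored factor that induces proteasome genes, went from 30.6 ± 1.94 to 77.2 ± 1.7 FPKM (log2 1.31, adjusted p = 6.14e-08).

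Of 14 tested genes listed as PERK branch and ATF4 targets, 13 rose with antigen and 0 fell, beside 36.2% and 34.9% of all tested genes. Their median log2 change was 1.06, and 13 rose and 0 fell under both of the scalings named above. The list was chosen with earlier results of these data known, and whether PERK acted on these genes was not tested. With IgE 4 of them rose and 2 fell, beside 14.5% and 13.1% of all tested genes. Nupr1 went from 28 ± 0.788 to 102 ± 4.26 FPKM (log2 1.82, adjusted p = 3.19e-09) and Trib3 from 7.96 ± 0.179 to 38.2 ± 1.65 (log2 2.13, adjusted p = 6.14e-08), while Eif2ak3 itself fell. Chac1, which degrades glutathione, went from 1.78 ± 0.372 to 21.3 ± 0.418 FPKM (log2 3.01, adjusted p = 5.03e-08). With IgE, Asns, the asparagine synthetase, and Trib3 rose (log2 0.58, adjusted p = 0.00106 and log2 0.47, adjusted p = 0.00353), and Ppp1r15a, which restores translation after PERK has acted, fell (log2 -0.30, adjusted p = 0.000849). Genes of export from the ER and of the retrieval of its residents numbered 17. Of these, 3 rose and 6 fell with antigen, beside 36.2% and 34.9% of all tested genes. The COPII coat genes Sec24d and Sec23a were lower (log2 -0.34, adjusted p = 1.87e-05 and log2 -0.30, adjusted p = 0.000436). Sar1a, of the same list, was higher (log2 0.28, adjusted p = 0.0003), a call lost after quantile normalization (log2 0.062, adjusted p = 0.151). In the same list 2 rose and 0 fell with IgE, namely Sec23b, also of the coat (log2 0.20, adjusted p = 0.00892), and Kdelr2, a receptor that returns ER residents, whose call was lost without untreated replicate 1 or 3 or IgE replicate 1 or 2 (log2 0.19, adjusted p = 0.0308; adjusted p over all settings 0.0089 to 0.105). Whether replicates of a group were cultured apart or drawn from different mice is not labelled, and the p-values rest on the spread of these libraries alone, which may be technical.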

How the data were processed

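RNA of 9 mast cell libraries was measured by sequencing, and 1 table of 23951 gene symbols was deposited, with FPKM values computed by the authors. The submitters' processing notes name TopHat2 2.0.12, Bowtie 0.12.7 and the build mm9. Neither the FPKM program nor its annotation or strand setting is given in the sources used here, so overlapping or near-identical genes may share reads. Columns were matched to samples by name and groups were taken from the titles.

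A gene was tested when 3 or more of the 9 libraries had at least 1 FPKM, which left 10890. The test was limma 3.58.1 (R 4.3.3) on log2(FPKM + 1), two-sided, with a mean for each group, a prior that follows the mean level and Benjamini-Hochberg adjusted p-values for each comparison. This scale understates changes of low genes. Folds are ratios of mean FPKM. The method was tested on simulated data. Replicates of a group shared at most 1 exact value among 6182 genes. Alternatives were pseudocounts of 0.1 and 0.5, other filters, 4 other scalings (the trimmed mean one computed without weights), a constant prior, fewer libraries, missing X and Y zeros and a replicate block. The depth estimate used 2966 genes with 1 transcript in GENCODE M21.

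Members and lists were chosen with earlier results of these data known. Per-library values are given for the 10 called members with the largest change in a comparison and the best-called member of each role, and up to 3 called genes of each other list are named. Promoter windows are of another build than the reads and serve for sequence only.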

Additional observations from a re-analysis of the deposited data

How the results depend on the processing

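For 163 log2 changes of named genes, 22 alternatives were run. In 36 of them a call was lost under at least 1 alternative, and in 29 a call was gained. For antigen versus IgE, 7 genes were called higher and 16 lower after quantile normalization, against 15 and 7, and 15 lower with a fixed total, which was added after seeing the data. For antigen versus untreated, 9 were lower after quantile normalization and 10 with a fixed total, against 3. For IgE versus untreated, the single gene called lower became 2 after quantile normalization, with the X and Y zeros missing and with both IgE and antigen replicate 3 left out, and 0 with a fixed total. The cause of these shifts was not tested. Leaving out 1 library at a time, IgE versus untreated gave 12 to 21 genes higher and 0 to 2 lower, antigen versus IgE 11 to 17 higher and 7 to 8 lower, and antigen versus untreated 24 to 27 higher and 3 to 4 lower.

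Some log2 changes turned and were called before or after the turn. For antigen versus IgE after quantile normalization these were Hyou1 -0.15, Dnajb11 -0.090, P4hb -0.019, Pdia3 -0.26, Pdia6 -0.18, Erp44 -0.12, Sec61b -0.11, Ssr2 -0.048 and Ssr3 -0.16, and 6 more members turned without a call in either fit. With a fixed total they were Dnajb11 -0.018, Pdia3 -0.16, Erp44 -0.15 and Derl2 -0.15, with 8 more. For antigen versus untreated they were Hsp90b1 -0.34, Dnajc3 -0.14, Canx -0.059, Pdia3 -0.032, Erp44 -0.069, Xbp1 -0.047, Sec61b -0.044, Sec61g -0.064, Ssr3 -0.071 and Spcs2 -0.25 after quantile normalization and Dnajc3 -0.18, Erp44 -0.10, Spcs2 -0.18 and Derl2 -0.042 with a fixed total, with 0 and 2 more.

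Whether the replicate numbers of the titles pair the libraries could not be decided. Correlations of same-numbered deviations from group means ran from -0.15 to 0.35, and not every library correlated best with its own number. The highest of all, 0.35, joined untreated replicate 2 and IgE replicate 2. Antigen replicate 3 differed from the other antigen libraries by an SD of 0.98 and 0.97 on the log2 scale, against 0.30 between those, which weakens the check for that group. These SDs were taken over 6182 genes without leaving out chromosome X, of which this library listed 437 genes at 0. The part of those zeros in the SDs was not tested. With a replicate block, 16 genes were higher and 1 lower with IgE against untreated, 15 and 7 for antigen versus IgE, and 27 and 3 for antigen versus untreated, and the IgE call of Canx was lost (log2 0.20, adjusted p = 0.068). The files hold no counts, so depth is an estimate.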
